A study of Arabidopsis thaliana with 8 samples.

Results

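SAUR62 to SAUR68 are 7 SMALL AUXIN UP RNA genes that stand in a tandem cluster on chromosome 1 of Arabidopsis thaliana. They were taken by locus tag, as SAUR62 (AT1G29430), SAUR63 (AT1G29440), SAUR64 (AT1G29450), SAUR65 (AT1G29460), SAUR66 (AT1G29500), SAUR67 (AT1G29510) and SAUR68 (AT1G29490). All 7 were among the 22951 genes of the table. The TAIR10.1 gene table gives AT1G29510 the symbol SAUR68, with SAUR67 as a synonym, and lists SAUR68 also as a synonym of AT1G29490, so the locus tags decide which gene is meant. The cluster was chosen by its measured levels in these same libraries, which earlier work had found higher in both mutant lines than in the wild type. Its fold changes against Col-0 are therefore a description, and their p-values carry no weight of their own.

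RNA came from whole seedlings at an age of 5 days, grown at 22 °C in 16 h of light and 8 h of dark after 4 days at 4 °C. There were 2 libraries of a line labelled as overexpressing MIR394A (MIR394A_OE), 3 of bin2-1 and 3 of the wild type Col-0, and all lines have the Col-0 background. miR394 is a small RNA whose target is the F-box gene LCR, and bin2-1 is a dominant allele of BIN2, a kinase that holds brassinosteroid signalling down. The labels do not give the promoter of the MIR394A transgene, the number of independent lines or whether replicates were separate sowings, so p-values measure only the spread between these libraries, which may be technical.

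SAUR genes are among the fastest genes to respond to auxin, and many also respond to brassinosteroid, light and temperature. Several SAUR proteins bind and inhibit phosphatases of the PP2C-D group, which otherwise switch off the proton pumps of the plasma membrane. Active pumps acidify the cell wall and let it loosen, so SAUR proteins are known for promoting cell elongation in hypocotyls and other growing organs. SAUR63 is known to promote elongation of hypocotyls and floral organs, and SAUR62 is known, together with its near copy SAUR75, for a part in pollen tube growth.

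In TAIR10.1 the cluster spans chr1:10302585-10323239, a stretch of 20655 bp with 2 arms. SAUR62, SAUR63, SAUR64 and SAUR65 lie on the minus strand, between 10302585 and 10308246. SAUR68, SAUR66 and SAUR67 lie on the plus strand, in that order, between 10319732 and 10323239. The gap between the arms is 11485 bp, against 444 to 1088 bp between neighbours within an arm. The transcript read for each of the 7 genes has 1 exon, and other annotated transcripts were not read. The coding sequences are 408 to 447 nt long, apart from SAUR68 with 309 nt, and the proteins have 135 to 148 residues in 6 genes and 102 in SAUR68. AT1G29435, an uncharacterized gene of the opposite strand, overlaps SAUR63 and SAUR64 and is not analysed here. Whether the counting used strand is not given in the sources used here, so the levels of SAUR63 and SAUR64 may include antisense reads. Of 768 windows of 50 nt along the SAUR67 transcript, 260 also occur at AT1G29435, so the level of SAUR67 may include such reads too.

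**Figure D1:**
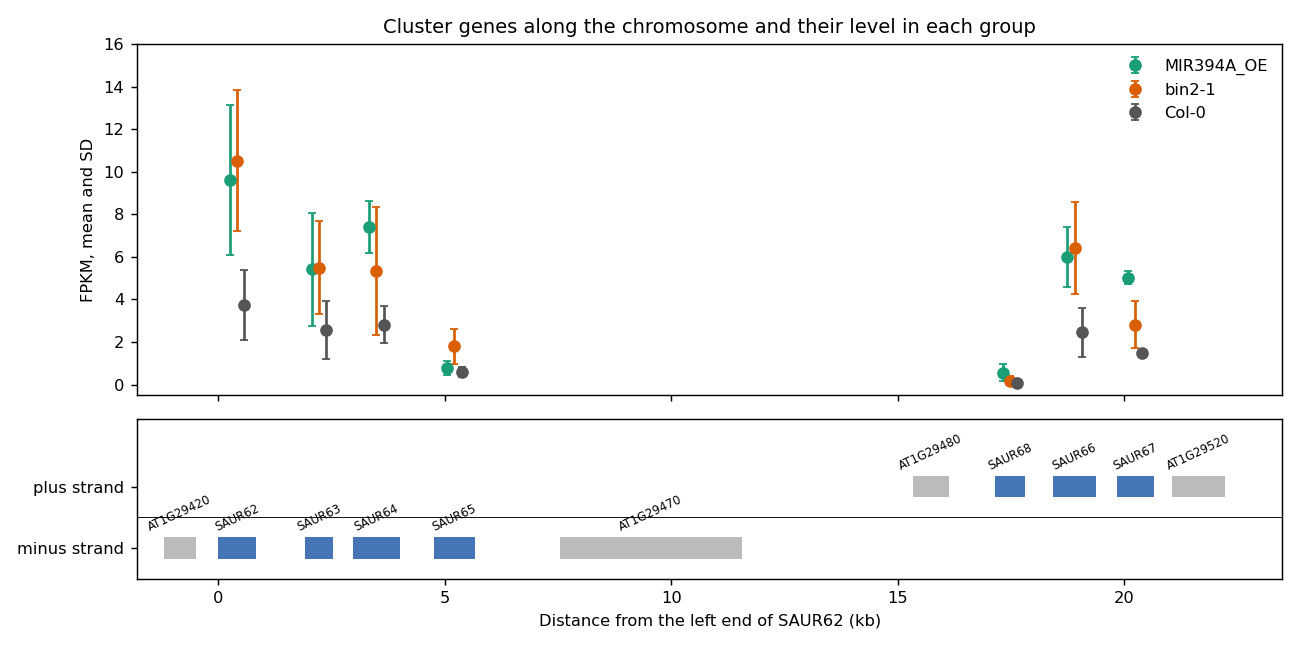
Group levels of the cluster genes (top, FPKM, points are means and bars are SD of 2 MIR394A_OE, 3 bin2-1 and 3 Col-0 libraries) above the position and strand of each gene (bottom, kb from the left end of SAUR62, blue for the cluster and grey for other genes). SAUR62, SAUR63, SAUR64 and SAUR66 have the highest levels, and SAUR65 and SAUR68, the innermost gene of each arm, have the lowest.

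A feature that the choice of genes did not use is the hexamer CACATG, an E-box variant of the kind that basic helix-loop-helix factors such as the PIF proteins can bind. It was found in the promoters of 7 of 7 members, searched on both strands from 250 bases before to 50 after the annotated start, against 12.91% of 27443 promoters of the genome. The windows below, each of 40 bases upstream of the start and read 5′ to 3′ on the gene's strand, are shown because the letters around the hexamer are also alike. The capitals mark CACATG, and the sequences are from RefSeq, TAIR10.1.
SAUR62: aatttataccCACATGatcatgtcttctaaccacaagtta
SAUR63: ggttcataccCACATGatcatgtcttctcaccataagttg
SAUR64: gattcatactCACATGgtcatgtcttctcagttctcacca
SAUR65: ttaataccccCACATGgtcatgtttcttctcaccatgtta
SAUR66: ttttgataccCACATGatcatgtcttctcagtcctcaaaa
SAUR67: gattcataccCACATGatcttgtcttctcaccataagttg
SAUR68: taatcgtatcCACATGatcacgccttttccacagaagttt
The hexamer starts 109 bases before the start of SAUR62, 193 before SAUR63, 95 before SAUR64, 104 before SAUR65, 36 before SAUR66, 42 before SAUR67 and 194 before SAUR68. Of the 40 bases, 34 match SAUR62 in SAUR63 and in SAUR67, 28 in SAUR66, 27 in SAUR64 and SAUR68, and 25 in SAUR65. SAUR61, the next gene outside the cluster, has 25. Each window is the one of its promoter most like that of SAUR62, and the hexamer itself counts among the matches. Of 27434 other promoters, 1507 had a CACATG on the gene's strand with a full window, with a median of 16 matching bases and a highest value of 26, and 2 had 25 or more. SAUR62, SAUR63, SAUR64, SAUR65 and SAUR68 hold further copies, 3 in all in SAUR68. These are descriptions of letters, and tandem copies share ancestry.

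The other motifs searched were less common in the cluster. The auxin response element TGTCTC lies in the promoters of SAUR62, SAUR66 and SAUR67, that is 3 of 7 against 14.19% of all promoters, and none of the matches overlap each other. Its variant TGTCGG lies in SAUR63 alone, against 5.12% of all promoters. CACGTG (the G-box), CGTGTG and CGTGCG (brassinosteroid response elements) were found in 0 of 7, against 7.68%, 6.52% and 1.96% of all promoters. The 250 bases before the start are given for SAUR62, the member with the highest level, and for SAUR67, the tested member with the highest ratio of MIR394A_OE to bin2-1, with TGTCTC and CACATG (or its reverse CATGTG) in capitals. They lie at chr1:10303419-10303668 on the minus strand and chr1:10322173-10322422 on the plus strand.
SAUR62: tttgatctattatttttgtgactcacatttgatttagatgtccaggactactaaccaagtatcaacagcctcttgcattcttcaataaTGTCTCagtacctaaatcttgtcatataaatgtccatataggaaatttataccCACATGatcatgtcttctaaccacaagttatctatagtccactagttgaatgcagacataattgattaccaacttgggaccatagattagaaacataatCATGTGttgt
SAUR67: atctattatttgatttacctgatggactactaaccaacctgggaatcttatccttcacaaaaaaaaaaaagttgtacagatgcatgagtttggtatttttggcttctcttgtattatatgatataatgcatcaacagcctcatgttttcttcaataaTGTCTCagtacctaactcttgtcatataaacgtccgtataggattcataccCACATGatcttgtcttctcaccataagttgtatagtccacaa

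The members are close copies of each other, which limits how far reads can be assigned to one gene. Coding sequences were most alike for SAUR63 and SAUR67, at 89.4% identity across the arms, and for SAUR62 and SAUR63, at 89.0%. SAUR75 (AT5G27780), on chromosome 5 and not analysed here, is 97.0% identical to SAUR62 in the coding part. Of all windows of 50 nt along the transcript, 33.85% in SAUR67, 27.12% in SAUR63 and 23.18% in SAUR62 occur elsewhere in the genome, against 0.44% in SAUR66, 0.64% in SAUR68 and 0 in SAUR64 and SAUR65. Levels of SAUR62, SAUR63 and SAUR67 are therefore uncertain where reads could be split between copies, and the sum over the cluster is given beside them. The longest stretches that the coding sequences share without a mismatch are printed because a read inside them fits both genes. The stretch of SAUR62 and SAUR75 has 162 nt and lies at chr1:10302947-10303108 and chr5:9839031-9839192, both on the minus strand. The stretch of SAUR63 and SAUR67 has 91 nt and lies at chr1:10304906-10304996 on the minus and chr1:10322686-10322776 on the plus strand. It begins with the coding part of SAUR63, and bases before the coding part were not compared in this search. Along the full transcripts, 95 of 503 windows of 100 nt in SAUR63 and 155 of 718 in SAUR67 occur elsewhere in the genome. Exact matches of these transcripts are therefore longer than the 91 nt printed, and more reads can be ambiguous than that stretch shows.
SAUR62 and SAUR75: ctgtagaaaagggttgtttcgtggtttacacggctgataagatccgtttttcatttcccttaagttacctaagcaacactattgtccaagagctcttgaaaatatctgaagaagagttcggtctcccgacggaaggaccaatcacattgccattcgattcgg
SAUR63 and SAUR67: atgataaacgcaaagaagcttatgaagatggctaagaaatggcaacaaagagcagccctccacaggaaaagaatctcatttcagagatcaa

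The estimated depth was 9.67 to 11.27 M reads per library. At this depth SAUR62 rested on about 22 to 118 reads per library, SAUR64 on 17 to 82, SAUR66 on 15 to 92, SAUR63 on 11 to 53 and SAUR67 on 12 to 47. SAUR65 rested on 3 to 22 reads and SAUR68 on 0 to 6. On the first principal component, which held 43.1% of the variance, the 3 bin2-1 libraries lay together at 30.9 to 38.6. Replicate 1 of MIR394A_OE lay farthest at the other end, at -54.2, with Col-0 replicate 1 next at -35.4. The remaining libraries lay between -15.0 and 2.70. LCR was at 17.2 and 17.5 FPKM in MIR394A_OE against 19.6, 19.6 and 23.9 FPKM in Col-0 and was not called, and MIR394A itself was not analysed here. The leaf genes among the tissue markers summed to 11405 to 18552 FPKM in all libraries, and the floral organ markers summed to 0.34 to 1.09 FPKM.

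The cluster as a whole had a higher summed level in both mutant lines than in Col-0. In FPKM (fragments scaled to transcript length and library size), the 7 genes summed to 27.9 and 41.8 in MIR394A_OE, to 20.4, 33.65 and 43.6 in bin2-1, and to 9.98, 13.2 and 18.1 in Col-0. Every MIR394A_OE and bin2-1 library lay above every Col-0 library, although bin2-1 replicate 1 exceeded Col-0 replicate 3 by little. The mean sum was 34.9 ± 9.84 FPKM in MIR394A_OE (SD, n = 2), 32.6 ± 11.6 in bin2-1 (SD, n = 3) and 13.7 ± 4.08 in Col-0 (SD, n = 3). The ratio of group means was 2.54 for MIR394A_OE against Col-0 and 2.37 for bin2-1 against Col-0. Between the mutant lines the ratio was 1.07, and it lay below 1 without MIR394A_OE replicate 2 (0.857) or without bin2-1 replicate 1 (0.902). Within a group the highest library was 1.5 times the lowest in MIR394A_OE, 2.13 times in bin2-1 and 1.81 times in Col-0. In whole seedlings, more cells that express these genes and more of their RNA per cell cannot be told apart.

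**Figure D2:**
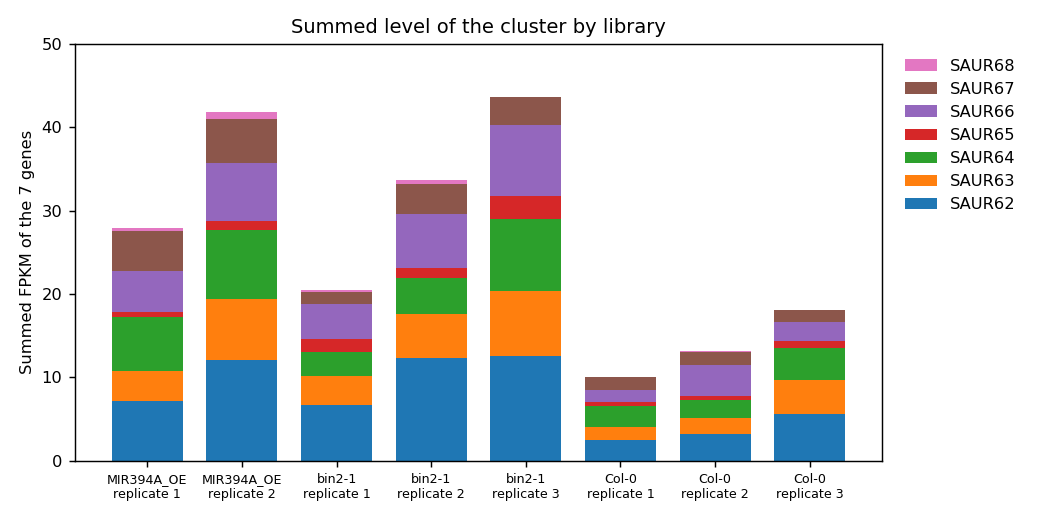
Summed FPKM of the 7 cluster genes in each library (stacked bars, 1 bar a library, 1 colour a gene, axis from 0). MIR394A_OE sums were 27.9 and 41.8 and bin2-1 sums 20.4 to 43.6, against 9.98 to 18.1 in Col-0, and SAUR62 is the largest share in every library except Col-0 replicate 1 and replicate 2.

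Both arms of the cluster had higher sums in the mutant lines. The minus-strand arm (SAUR62 to SAUR65) summed to 17.8 and 28.7 FPKM in MIR394A_OE, 14.6 to 31.75 in bin2-1 and 7.03 to 14.4 in Col-0. The ratios of group means were 2.39 for MIR394A_OE and 2.38 for bin2-1, each against Col-0. The plus-strand arm (SAUR66, SAUR67 and SAUR68) summed to 10.1 and 13.1 FPKM in MIR394A_OE, 5.88 to 11.8 in bin2-1 and 2.95 to 5.39 in Col-0. Here the ratios were 2.89 for MIR394A_OE and 2.35 for bin2-1. In the minus-strand arm the lowest bin2-1 library and the highest Col-0 library were nearly equal.

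SAUR62, the most abundant member, had 7.14 and 12.1 FPKM in MIR394A_OE, 6.70, 12.3 and 12.5 in bin2-1, and 2.41, 3.21 and 5.56 in Col-0. The 5 mutant libraries all lay above the 3 wild-type ones. The log2 fold change, on the log2(FPKM + 1) scale, was 1.18 (SE 0.35) for MIR394A_OE and 1.29 (SE 0.32) for bin2-1, each against Col-0. SAUR63, the member with the best known role in elongation, had 3.55 and 7.29 FPKM in MIR394A_OE, 3.39, 5.32 and 7.77 in bin2-1, and 1.65, 1.93 and 4.15 in Col-0. Replicate 1 of each mutant line lay below the highest Col-0 library, so the groups overlapped. Its log2 fold changes against Col-0 were 0.84 (SE 0.39) in MIR394A_OE and 0.87 (SE 0.35) in bin2-1. The value in MIR394A_OE was 0.41 without replicate 2 and 1.28 without replicate 1.

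SAUR64 had 6.53 and 8.28 FPKM in MIR394A_OE, 2.97, 4.29 and 8.73 in bin2-1, and 2.54, 2.13 and 3.78 in Col-0. Both MIR394A_OE libraries lay above Col-0, whereas bin2-1 replicate 1 lay inside the Col-0 range. The log2 fold changes against Col-0 were 1.15 (SE 0.35) in MIR394A_OE and 0.65 (SE 0.32) in bin2-1, or 0.29 in bin2-1 without its replicate 3. SAUR65 was a low member, with 0.57 and 1.03 FPKM in MIR394A_OE, 1.49, 1.17 and 2.72 in bin2-1, and 0.43, 0.50 and 0.88 in Col-0. It stood above Col-0 in bin2-1 without overlap and overlapped with Col-0 in MIR394A_OE. The log2 fold changes against Col-0 were 0.17 (SE 0.27) in MIR394A_OE and 0.77 (SE 0.24) in bin2-1, with 95% intervals of -0.44 to 0.77 and 0.23 to 1.31. Without MIR394A_OE replicate 2 the first value was -0.02 and without replicate 1 it was 0.35, and the mean of SAUR65 over the 8 libraries, 1.10 FPKM, was just above the minimum of 1 FPKM for testing, which it reached through the bin2-1 libraries.

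In the other arm, SAUR66 had 5.0 and 7.0 FPKM in MIR394A_OE, 4.2, 6.54 and 8.49 in bin2-1, and 1.41, 3.69 and 2.28 in Col-0. Like SAUR62 it was above Col-0 in every library of both mutant lines. The log2 fold changes against Col-0 were 1.06 (SE 0.33) in MIR394A_OE and 1.11 (SE 0.30) in bin2-1. SAUR67 had 4.82 and 5.24 FPKM in MIR394A_OE, 1.54, 3.58 and 3.34 in bin2-1, and 1.54, 1.54 and 1.42 in Col-0. It had the least spread within MIR394A_OE and within Col-0 of the 6 tested members, relative to its mean, while bin2-1 replicate 1 equalled the highest Col-0 value. The log2 fold changes against Col-0 were 1.27 (SE 0.26) in MIR394A_OE and 0.56 (SE 0.23) in bin2-1.

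SAUR68, with the shortest coding sequence, was barely detected. It had 0.28 and 0.85 FPKM in MIR394A_OE, 0.14, 0.42 and 0 in bin2-1, and 0, 0.16 and 0 in Col-0. A level of 3 reads would be 0.397 to 0.462 FPKM for this gene, and only MIR394A_OE replicate 2 was clearly above it. Its mean of 0.231 FPKM was below that minimum, and no fold change is given.

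**Figure D3:**
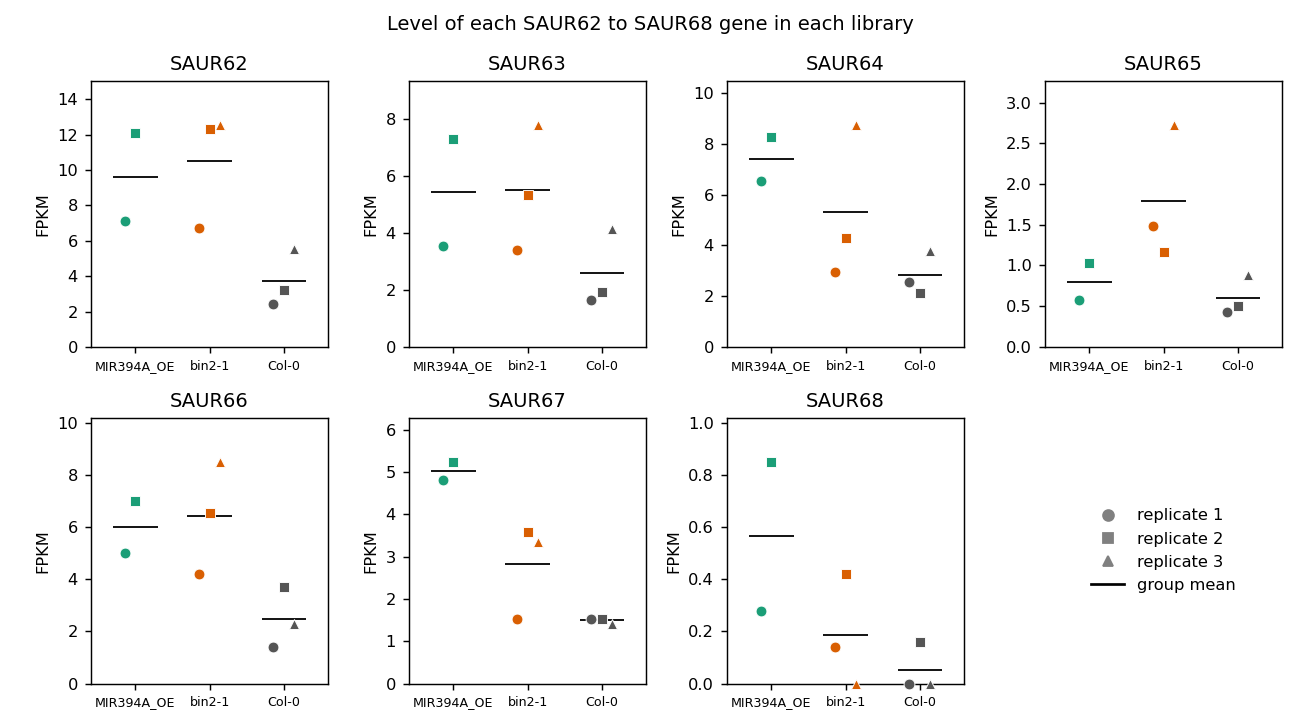
FPKM of each cluster gene in each library (each panel has its own axis from 0, points are libraries with a symbol for each replicate number, lines are group means, n = 2 for MIR394A_OE and 3 each for bin2-1 and Col-0). SAUR62 and SAUR66 lie above Col-0 in all 5 mutant libraries, SAUR67 at 4.82 and 5.24 in MIR394A_OE lies above both other groups, and SAUR65 is highest in bin2-1.

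Tests ran over 18798 genes that averaged 1 FPKM or more, and no member passed in any comparison. For MIR394A_OE against Col-0, limma called 0 of the 6 tested members at an adjusted p under 0.05, against 0.0106% of all tested genes. At an unadjusted p under 0.05 there were 4 of 6, all higher, against 3.15% of all genes for that direction. The 4 were SAUR62, SAUR64, SAUR66 and SAUR67, which were also those above every Col-0 library, against 10.9% of all genes. The median log2 fold change of the 6 members was 1.10, and that of all tested genes was 0.04. For bin2-1 against Col-0 limma called 0 of 6 members, against 0.112% of all genes. At an unadjusted p under 0.05 there were 5 of 6, all higher and all but SAUR64, against 11.1% of all genes. SAUR62, SAUR65 and SAUR66, 3 of 6, lay above every Col-0 library, against 20.2% of all genes. SAUR65 could be counted here only because its bin2-1 level lifted it over the minimum for testing. The median log2 fold change was 0.82, against 0.10 for all tested genes. These counts come from the comparisons that led to the choice of the cluster, and both use the same Col-0 libraries, so nothing is read from them. The lowest adjusted p among the members was 0.109, for SAUR62 in bin2-1.

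**Figure D4:**
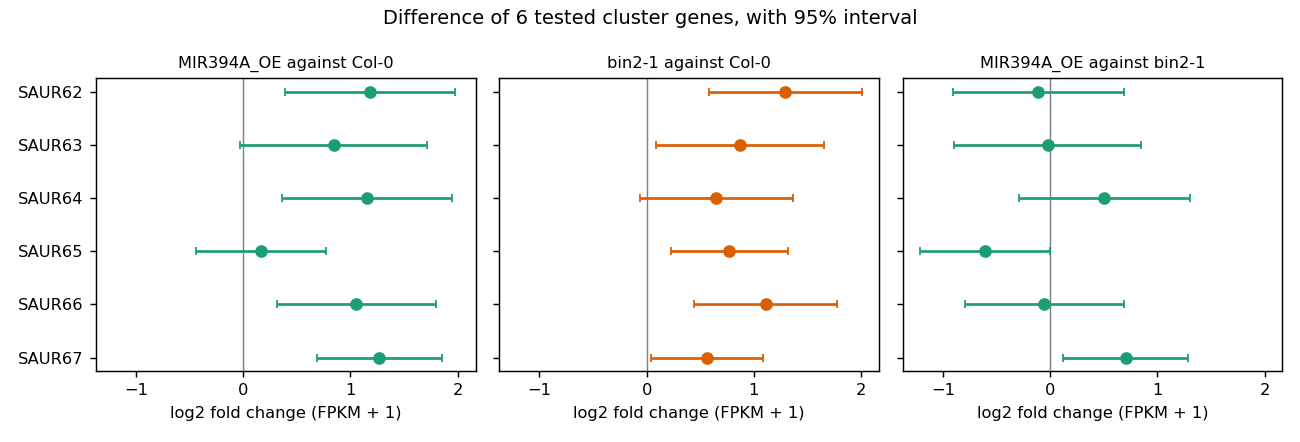
Log2 fold change of the 6 tested cluster genes on the log2(FPKM + 1) scale in 3 comparisons (points are limma estimates, bars are 95% intervals). Against Col-0 the estimates run from 0.17 to 1.27 in MIR394A_OE and from 0.56 to 1.29 in bin2-1, and between the mutant lines they run from -0.61 for SAUR65 to 0.71 for SAUR67.

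The mutant lines were also set against each other, which asks where the members differ between them. For MIR394A_OE against bin2-1 limma called 0 of 6 members, against 0.0532% of all tested genes, and at an unadjusted p under 0.05 there were 2 of 6, against 19.0% of all genes in either direction. These were SAUR67 and SAUR65, in opposite directions, but SAUR65 reached the minimum for testing only through its level in bin2-1, so its count and values here are a description. SAUR67 averaged 5.03 ± 0.297 FPKM in MIR394A_OE (SD, n = 2) and 2.82 ± 1.12 in bin2-1 (SD, n = 3), without overlap, with a log2 fold change of 0.71 (SE 0.26, 95% interval 0.12 to 1.29), or 0.43 without bin2-1 replicate 1. SAUR65 averaged 0.80 ± 0.325 FPKM in MIR394A_OE and 1.79 ± 0.818 in bin2-1, also without overlap, with a log2 fold change of -0.61 (SE 0.27). A lack of overlap in the higher direction was found for 15.0% of all genes and in the lower direction for 20.9%. SAUR64 had a log2 fold change of 0.51 (SE 0.35), with overlapping groups, and 0.22 without bin2-1 replicate 1 or 0.87 without bin2-1 replicate 3. SAUR62, SAUR63 and SAUR66, whose signs turned with single libraries left out, had values of -0.11 (SE 0.35), -0.02 (SE 0.39) and -0.05 (SE 0.33). Their 95% intervals reached from -0.91, -0.90 and -0.80 up to 0.69, 0.85 and 0.69, so differences within these ranges were not detectable here. The median log2 fold change was -0.04 for the members and -0.06 for all tested genes.

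The makeup of the cluster's RNA was broadly alike in the 3 groups, with shifts in some members. SAUR62 made up 25.6% to 29.0% of the summed FPKM in MIR394A_OE, 28.8% to 36.6% in bin2-1 and 24.1% to 30.8% in Col-0. SAUR67 made up 12.5% and 17.3% in MIR394A_OE, 7.54% to 10.6% in bin2-1 and 7.86% to 15.4% in Col-0. SAUR65 made up 2.04% and 2.46% in MIR394A_OE, 3.48% to 7.29% in bin2-1 and 3.80% to 4.87% in Col-0, so both MIR394A_OE shares lay below all others. In order of the mean level, MIR394A_OE had SAUR62, SAUR64, SAUR66, SAUR63, SAUR67, SAUR65 and SAUR68. The order was SAUR62, SAUR66, SAUR63, SAUR64, SAUR67, SAUR65 and SAUR68 in bin2-1, and SAUR62, SAUR64, SAUR63, SAUR66, SAUR67, SAUR65 and SAUR68 in Col-0. SAUR63, SAUR64 and SAUR66 were neighbours in each order with differences smaller than their SD in bin2-1 and Col-0. SAUR62 exceeded the next gene by more than its SD in bin2-1 alone.

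The order of the libraries within a group was shared by many members. In MIR394A_OE, replicate 2 was the higher library for 7 of 7 members, among them SAUR65 and SAUR68 with few reads. The share of all genes with this order was not computed. These libraries lay far apart on the first component, at -54.2 for replicate 1 and -2.86 for replicate 2. In bin2-1, replicate 3 was the highest for 5 of 7 but the lowest for 1, and replicate 1 was the lowest for 5. In Col-0, replicate 3 was the highest for 4 of 7 and the lowest for 1, and replicate 2 was the highest for 2. Over the 8 libraries Pearson's r of log2(FPKM + 1) between pairs of the 6 tested members was 0.22 to 0.95, with a median of 0.75. After each group's mean was taken out, it was 0.16 to 0.95, with a median of 0.60. The highest value was for SAUR62 and SAUR63 (0.95 in both forms), and the lowest for SAUR65 and SAUR67. The points share libraries, depth and, for near copies, possibly reads.

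The genes outside the cluster with the pattern most like its mean standardised profile, among 13822 genes with at least 5 FPKM on average, were PEN1, LTI30, TET10, COP8 and AT3G04560, at r of 0.95, 0.94, 0.94, 0.94 and 0.94 over the 8 libraries. PEN1, a triterpene synthase gene, had 5.04 and 6.66 FPKM in MIR394A_OE, 5.33, 6.55 and 7.23 in bin2-1, and 4.14, 4.53 and 4.84 in Col-0. LTI30, a cold-induced dehydrin gene, had 149 and 168 FPKM in MIR394A_OE, 123, 162 and 189 in bin2-1, and 95.8, 101 and 91.1 in Col-0. Both were above Col-0 in all 5 mutant libraries and higher in replicate 2 than in replicate 1 of MIR394A_OE, as the cluster was. They were picked for likeness over these same libraries, so the shared pattern follows from the choice. All 7 members, SAUR68 among them, entered the profile with the same weight.

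The annotated genes beside and between the arms were read in the same way. SAUR61 (AT1G29420), the adjoining SAUR gene on the same strand as SAUR62, had 6.29 and 3.47 FPKM in MIR394A_OE, 5.04, 4.83 and 4.28 in bin2-1, and 5.58, 5.33 and 4.27 in Col-0. Its log2 fold change was -0.08 in both lines against Col-0 (SE 0.24 in MIR394A_OE and 0.21 in bin2-1), with overlapping groups. AT1G29470, a gene of the methyltransferase superfamily between the arms, had 50.8 and 74.6 FPKM in MIR394A_OE, 85.5, 120 and 127 in bin2-1, and 67.1, 57.7 and 56.3 in Col-0. It lay above Col-0 in bin2-1 alone, with a log2 fold change of 0.85 (SE 0.20), and was not called (limma, adjusted p = 0.108). AT1G29520, which adjoins SAUR67, and PAI3 and AT1G29530, farther out, were not called in any comparison, as no member was. AT1G29530 had 15.1 and 9.0 FPKM in MIR394A_OE, 5.17, 5.4 and 4.74 in bin2-1, and 14.4, 7.28 and 6.54 in Col-0. Its log2 fold change was -0.70 (SE 0.29) in bin2-1 against Col-0 and 1.06 (SE 0.32) in MIR394A_OE against bin2-1. The difference between these genes and the members was not tested.

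Among the SAUR genes outside the cluster, taken by symbol or synonym (which brought in AT5G01830, an ARM repeat gene), 47 of 59 were tested and limma called 0 in each comparison. At an unadjusted p under 0.05 there were 6 in MIR394A_OE against Col-0, 14 in bin2-1 against Col-0 and 9 between the mutant lines. Over all tested genes the shares were 4.78%, 17.8% and 19.0%, and 9 of 47 is near the last of these. Their median log2 fold changes were 0.23, 0.20 and 0.01. SAUR45 (AT2G36210) had 0.94 and 0.73 FPKM in MIR394A_OE, 5.04, 3.74 and 3.78 in bin2-1, and 0.36, 1.09 and 1.45 in Col-0, with a log2 fold change of 1.43 (SE 0.24) in bin2-1 against Col-0 (adjusted p = 0.0619). SAUR45 reached the minimum of 1 FPKM for testing only through bin2-1, so these values are a description. SAUR50 (AT4G34760) lay the other way from SAUR45, with 29.2 and 17.9 FPKM in MIR394A_OE, 8.54, 8.12 and 9.78 in bin2-1, and 17.1, 16.8 and 14.7 in Col-0. Its log2 fold change in bin2-1 was -0.81 (SE 0.20, adjusted p = 0.108). Positive log2 fold changes against Col-0 were found for 33 of the 47 in MIR394A_OE and 29 in bin2-1. Medians over all tested genes were 0.04 and 0.10. The 6 of 6 tested members of the cluster were positive in each line. They were chosen for higher levels in these libraries, so the counts are not comparable.

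The partners of SAUR proteins were then read in the same order as the pathway, from the phosphatases and pumps to the auxin receptors and factors upstream. Counts at an unadjusted p under 0.05 are given for MIR394A_OE against Col-0, bin2-1 against Col-0 and MIR394A_OE against bin2-1, in which 4.78%, 17.8% and 19.0% of all tested genes had such a p. Of the 9 PP2C-D phosphatases, all tested, limma called 0 in each comparison, and 0, 3 and 3 had an unadjusted p under 0.05. AT4G33920 had 131 and 93.9 FPKM in MIR394A_OE, 21.0, 28.3 and 55.5 in bin2-1, and 128, 123 and 54.4 in Col-0, so 1 Col-0 library lay within the bin2-1 range. Its log2 fold change in bin2-1 was -1.54 (SE 0.40). AT3G17090 had a log2 fold change of 0.36 (SE 0.13) in bin2-1. Over the 9 phosphatases the log2 fold changes in bin2-1 against Col-0 ran from -1.54 to 1.56. Of the 3 with an unadjusted p under 0.05 there, 2 were higher and 1 lower. Of the 8 tested proton pump genes 0 were called, with 2, 0 and 3 at an unadjusted p under 0.05. These 2 and 3 were all lower in MIR394A_OE. In MIR394A_OE, 7 of the 8 had negative log2 fold changes against Col-0 and 7 against bin2-1 (medians -0.25 and -0.48). Replicate 1 of MIR394A_OE was lower than replicate 2 for each of these 8 genes. In replicate 2, HA1, HA2 and HA7 lay below every Col-0 library. HA3 and HA4 lay inside the Col-0 range there, and HA5, HA8 and HA11 above it. HA1 had 115 and 226 FPKM in MIR394A_OE against 233 to 257 in Col-0, and HA5 had 3.05 and 6.76 against 4.58 to 6.26. In bin2-1 against Col-0, 7 of the 8 were positive (median 0.19). The pumps with the smallest p in bin2-1, HA8 and HA7, had log2 fold changes of 0.50 (SE 0.25) and 0.33 (SE 0.18).

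Among the 6 auxin receptor genes 0 were called, with 0, 2 and 2 at an unadjusted p under 0.05, again against 4.78%, 17.8% and 19.0% of all tested genes. AFB3 and GRH1 had log2 fold changes of 0.53 (SE 0.19) and 0.46 (SE 0.19) in bin2-1 against Col-0. Among the 5 activating auxin response factors 0 were called, with 0, 1 and 1 at an unadjusted p under 0.05. ARF6 had 9.16 and 17.1 FPKM in MIR394A_OE, 29.8, 31.4 and 26.2 in bin2-1, and 15.1, 15.7 and 21.0 in Col-0. Among the 8 growth transcription factors, the brassinosteroid factors BZR1 and BES1, the PIF factors and HBI1, 0 were called, with 1, 4 and 3 at an unadjusted p under 0.05. HBI1, a helix-loop-helix activator of cell elongation, had 12.4 and 13.6 FPKM in MIR394A_OE, 14.04, 23.7 and 18.0 in bin2-1, and 11.4, 4.85 and 7.57 in Col-0. Its log2 fold changes against Col-0 were 0.71 (SE 0.31) in MIR394A_OE and 1.17 (SE 0.28) in bin2-1, with both lines above Col-0, and neither was called. PIF3 had log2 fold changes of -0.03 (SE 0.23) in MIR394A_OE and 0.82 (SE 0.21) in bin2-1. Over the 8 factors in bin2-1 against Col-0, 3 log2 fold changes were positive and 5 negative (median -0.11). Of the 4 with an unadjusted p under 0.05 there, 3 were higher and 1 lower.

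Of 13 early auxin response genes of the Aux/IAA and GH3 families 12 were tested, and IAA29, an Aux/IAA repressor gene that PIF factors are known to induce, was the gene called, with 2, 6 and 5 of the 12 at an unadjusted p under 0.05. It had 0.72 and 1.39 FPKM in MIR394A_OE, 5.64, 6.73 and 6.24 in bin2-1, and 0.64, 0.42 and 1.11 in Col-0. It rose in bin2-1 against Col-0 by 2.08 on the log2 scale (SE 0.21; limma with Benjamini-Hochberg, adjusted p = 0.0236). In MIR394A_OE against Col-0 the value was 0.25 (SE 0.24) with overlapping groups, and between the mutant lines it was -1.83 (SE 0.24, adjusted p = 0.0464). IAA29 reached the minimum of 1 FPKM for testing only through bin2-1, the group where it is high, so both calls are a description. The call in bin2-1 against Col-0 was lost when any 1 library other than bin2-1 replicate 3 or Col-0 replicate 3 was left out. The call between the mutant lines was lost without MIR394A_OE replicate 1, bin2-1 replicate 1 or 2, or Col-0 replicate 2.

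Some genes of the daily clock differed between the MIR394A_OE libraries. The 5 evening genes, all in the table, summed to 126 and 194 FPKM in MIR394A_OE, 171 to 212 in bin2-1 and 188 to 190.0 in Col-0. TOC1 was at 30.5 FPKM in replicate 1 and 66.5 in replicate 2 of MIR394A_OE, while ELF4 was at 45.2 and 32.9 and the morning gene LHY at 39.7 and 40.45. The 2 morning genes summed to 62.4 and 65.3 FPKM in MIR394A_OE, 28.4 to 39.1 in bin2-1 and 32.1 to 50.4 in Col-0. SAUR genes are known to follow the time of day, and the part of the clock genes in the levels of the cluster was not tested. Without the libraries lowest on the first component (replicate 1 of MIR394A_OE and of Col-0) the members' log2 fold changes against Col-0 were positive for 6 of 6 members in both lines, at 0.27 to 1.33 in MIR394A_OE and 0.58 to 1.09 in bin2-1. The summed level was then 2.68 times that of Col-0 in MIR394A_OE and 2.08 times in bin2-1.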

How the data were processed

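The authors deposited 1 table of FPKM values for 22951 genes in 8 libraries, per the file headers. Libraries came from an Illumina TruSeq kit, per the labels' protocols. Bowtie2 and HISAT are named without a role in the submitters' processing notes. No source used here names the genome build, the FPKM program or a strand setting.

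Since FPKM values are no counts, limma 3.58.1 (R 4.3.3) was run on log2 values after adding a pseudocount of 1 FPKM, which understates fold changes of low genes. Genes averaging 1 FPKM or more were kept (18798). All 8 libraries were fitted together with group means (eBayes with trend and robust), with Benjamini-Hochberg adjustment over all tested genes and a threshold of 0.05. The test was checked on simulated data. Depth was inferred from the steps between low FPKM values of 1646 genes of 500 to 1800 nt, where 87.6% to 92.3% of values worth up to 5 reads came out whole within 0.1 read. Read numbers cover counting error only.

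The members, pathway lists and motifs were chosen with earlier results of these data known. Named genes are the members, their neighbours, the 5 genes most like them, and from each list up to 4 called genes, or the 2 with the smallest p in bin2-1 against Col-0. Clock genes, and proton pumps other than HA7 and HA8, were named after their values were seen. Gene positions, names and sequences are from RefSeq TAIR10.1, matched by locus tag for 22798 genes. Proteins were not printed.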

Additional observations from a re-analysis of the deposited data

How the results depend on the processing

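The 0 calls among the cluster genes held under each alternative run in each comparison, and the log2 fold changes against Col-0 kept their sign in 65 of the 65 alternative values in bin2-1, and in 65 of 66 in MIR394A_OE, that differed from the reported one (alternatives that leave the estimate as it is were not counted). The exception was SAUR65 without MIR394A_OE replicate 2 (-0.0198), which was 0.35 without replicate 1. Between MIR394A_OE and bin2-1 the sign turned for SAUR62 with the replicate block (0.0911) and without MIR394A_OE replicate 1 (0.23), bin2-1 replicate 2 (0.02) or bin2-1 replicate 3 (0.03). It turned for SAUR63 with median-of-ratios scaling (0.0213), quantile scaling (0.0323) and the replicate block (0.25), and without MIR394A_OE replicate 1 (0.41) or bin2-1 replicate 3 (0.22). It turned for SAUR66 with quantile scaling (0.0107) and the replicate block (0.04), and without MIR394A_OE replicate 1 (0.15) or bin2-1 replicate 3 (0.15). The lowest values with a library left out were -0.45 for SAUR62, -0.46 for SAUR63 and -0.29 for SAUR66. Without both libraries lowest on the first component, chosen after seeing the data, these were 0.23 for SAUR62, 0.41 for SAUR63 and 0.15 for SAUR66. Leaving out each library gave ratios of the summed level of 2.03 to 3.04 for MIR394A_OE and 1.97 to 2.81 for bin2-1, each against Col-0, and 0.857 to 1.29 between them, with 0.902 without bin2-1 replicate 1.

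Counts over all genes moved far more. For MIR394A_OE against Col-0 (2 genes) they were 0 to 2 with a library left out and 0 with only the groups compared. For bin2-1 against Col-0 (21 genes, 10 higher and 11 lower) they were 3 with no filter, 111 with median-of-ratios scaling (17 higher and 94 lower), 24 with quantile scaling (7 higher and 17 lower), 9 without trend and robust, 1 without both lowest libraries, 0 with only the groups compared and 0 to 180 with a library left out. For MIR394A_OE against bin2-1 (10 genes, 4 higher and 6 lower) they were 6 with a pseudocount of 0.1 or 0.5, 3 with no filter, 14 with median-of-ratios scaling (8 higher and 6 lower), 15 with quantile scaling (10 higher and 5 lower), 2 without both lowest libraries, 0 with only the groups compared and 1 to 2307 with a library left out, the highest without MIR394A_OE replicate 2. The 1 called gene of the pathway lists became 0 in bin2-1 against Col-0 with a minimum mean of 5 FPKM, without both lowest libraries and with only the groups compared, and 0 to 4 with a library left out. Between the mutant lines it became 0 with each other pseudocount, no filter, the minimum of 5 FPKM, quantile scaling, the replicate block, without both lowest libraries and with only the groups compared, and 0 to 13 with a library left out. The cause was not tested.

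Deviations of same-numbered libraries from their group means had r of 0.083, -0.202 and -0.111 between bin2-1 and Col-0, 0.360 and 0.270 between MIR394A_OE and Col-0, and 0.322 and 0.030 between MIR394A_OE and bin2-1 (the 2 MIR394A_OE deviations mirror each other). The labels state no pairing and 2 of the 3 values of bin2-1 and Col-0 were negative, so the numbers were not used as pairs. With the replicate number as a block 32 genes were called in bin2-1 against Col-0. With a minimum mean of 5 FPKM SAUR62 was the 1 member left to test, and without bin2-1 replicate 3 SAUR65 could not be fitted, since its mean was below the minimum. Depth leaves SAUR65 and SAUR68 resting on few reads.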
